A study of Mus musculus with 2 samples.

Results

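The widest accessible sites of the mouse urinary bladder were autosomal DNase I peaks at least 600 bases wide in one library that overlapped a peak at least 600 bases wide in the other. They were 316 of 37692 autosomal peaks in replicate 1 and 295 of 46471 in replicate 2, and together they formed 278 loci after merging. They were chosen by a measured value, the width of the peak, so width and overlap are given as descriptions. The assay was DNase-seq, which sequences the ends that DNase I leaves when it cuts open chromatin. The tissue was urinary bladder of 2 B6CASTF1/J males aged 36 days, which the labels number as different animals. B6CASTF1/J mice carry one genome of C57BL/6J and one of CAST/EiJ, no treatment or engineered allele is labelled, and a piece of bladder mixes epithelium, muscle, stroma, vessels and nerve. There was 1 group with 1 library per animal, so no conditions were compared and nothing was tested. Below, the wide sites are set against the peaks of 180 to 220 bases of the same library, 10039 in replicate 1 and 13094 in replicate 2, and a difference is set against the SD of the 2 libraries.

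An accessible site is usually a stretch freed when a nucleosome, the unit of DNA wound on histones, is displaced by bound proteins. Within such a site, a footprint is a short stretch that DNase I cut less often than its surroundings, as happens where a protein covers the DNA. Promoters in CpG islands, stretches of DNA rich in the dinucleotide CG that mostly stay unmethylated, are often kept free of nucleosomes in many cell types and can have several start positions. The peak height is the value deposited for each peak; its scale is not stated, so heights were ranked within a library, and a height set across libraries carries that limit. In bulk tissue, a site open in fewer cells and a site less open in each cell cannot be told apart.

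The letters of a few sites show what these regions hold. The windows below lie in the bases that the wide peaks of both libraries shared and outside annotated exons, are from the RefSeq GRCm38.p6 sequence, which shares coordinates with mm10, and are written 5′ to 3′ on the plus strand; capitals mark bases in footprints of both libraries. Within each site, the window of 240 bases with the most such bases was taken. The first 4 come from wide sites at transcription starts. They were chosen for the site of greatest mean height over the 2 libraries (Abtb1) and for genes described below: Kdm3a, a demethylase of histone H3 lysine 9, Cdkn1b, which encodes the cell cycle inhibitor p27, and Hsph1, a chaperone of the heat shock response.
Abtb1, chr6:88842010-88842249: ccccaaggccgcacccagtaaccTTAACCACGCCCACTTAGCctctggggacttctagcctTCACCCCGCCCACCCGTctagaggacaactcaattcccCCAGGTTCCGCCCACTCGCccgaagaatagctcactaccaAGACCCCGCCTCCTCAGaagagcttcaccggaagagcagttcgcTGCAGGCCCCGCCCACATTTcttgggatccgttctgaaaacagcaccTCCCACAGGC
Kdm3a, chr6:71632991-71633230: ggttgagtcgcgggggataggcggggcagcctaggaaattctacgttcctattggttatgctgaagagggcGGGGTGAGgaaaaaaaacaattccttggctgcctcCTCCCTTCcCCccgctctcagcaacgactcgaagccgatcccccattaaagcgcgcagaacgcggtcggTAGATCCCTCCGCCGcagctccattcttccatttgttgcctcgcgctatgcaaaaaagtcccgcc
Cdkn1b, chr6:134920117-134920356: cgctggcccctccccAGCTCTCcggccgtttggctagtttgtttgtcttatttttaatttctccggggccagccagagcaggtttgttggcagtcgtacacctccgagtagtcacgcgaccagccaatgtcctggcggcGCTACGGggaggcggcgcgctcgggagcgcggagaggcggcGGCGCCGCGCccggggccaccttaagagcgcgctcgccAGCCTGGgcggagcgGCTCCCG
Hsph1, chr5:149636377-149636616: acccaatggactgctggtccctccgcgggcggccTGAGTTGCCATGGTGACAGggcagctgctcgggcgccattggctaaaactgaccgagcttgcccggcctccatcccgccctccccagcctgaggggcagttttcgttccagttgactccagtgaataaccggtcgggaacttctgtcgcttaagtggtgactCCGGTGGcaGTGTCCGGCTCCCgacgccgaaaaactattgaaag
In the Abtb1 window, 102 of 240 bases lay in footprints of both libraries, in 6 runs whose centres were 37, 39, 39, 45.5 and 42 bases apart. Of those 6 runs, 3 held, within 2 bases of their edges, the word GGGCGG or its reverse complement, to which Sp and Klf zinc finger factors bind. The other 3 windows had fewer such bases, 33 in Kdm3a, 38 in Cdkn1b and 39 in Hsph1. By the same rule, none of their runs held that word. Their runs were also less evenly spaced, with centres 6 to 66.5 bases apart in Kdm3a, 15 to 124 in Cdkn1b, and 156 and 12 in Hsph1.

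The next 3 windows come from wide sites away from starts: an intron of the cell cycle kinase gene Cdk6, the widest locus of all, an intergenic site of the HoxA cluster, which holds patterning genes, and an intronic site whose nearest start, 12474 bases away, is that of the antisense RNA gene Gm12278, and which had the lowest CpG ratio of all loci.
Cdk6 intron, chr5:3342416-3342655: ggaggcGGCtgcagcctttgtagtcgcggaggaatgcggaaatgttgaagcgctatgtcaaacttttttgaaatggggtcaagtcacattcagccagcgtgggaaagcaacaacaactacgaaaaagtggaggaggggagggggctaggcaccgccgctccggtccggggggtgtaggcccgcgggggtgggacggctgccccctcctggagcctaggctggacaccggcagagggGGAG
HoxA cluster, chr6:52252662-52252901: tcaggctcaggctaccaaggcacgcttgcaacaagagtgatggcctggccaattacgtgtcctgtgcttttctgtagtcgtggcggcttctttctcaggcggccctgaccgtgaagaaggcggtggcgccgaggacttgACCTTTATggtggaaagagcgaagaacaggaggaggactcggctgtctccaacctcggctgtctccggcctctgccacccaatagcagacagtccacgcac
Gm12278, intronic, chr11:62494783-62495022: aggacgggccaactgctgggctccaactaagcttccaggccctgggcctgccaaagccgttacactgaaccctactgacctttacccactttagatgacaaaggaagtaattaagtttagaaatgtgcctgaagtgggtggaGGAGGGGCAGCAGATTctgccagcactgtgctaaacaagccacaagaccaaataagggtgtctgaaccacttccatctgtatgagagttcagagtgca
They had 7, 8 and 16 bases in footprints of both libraries. Their CG dinucleotides numbered 15 in Cdk6, 14 in the HoxA cluster and 2 in Gm12278. The windows at starts had 12 in Abtb1, 19 in Kdm3a, 29 in Cdkn1b and 17 in Hsph1.

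For contrast, a peak of 180 to 220 bases at a start, shared by the libraries, with at least 15 bases in footprints of both and nearest to the median height of its kind, is shown whole over its 200 shared bases.
Start of Gm38563, chr15:61157601-61157800: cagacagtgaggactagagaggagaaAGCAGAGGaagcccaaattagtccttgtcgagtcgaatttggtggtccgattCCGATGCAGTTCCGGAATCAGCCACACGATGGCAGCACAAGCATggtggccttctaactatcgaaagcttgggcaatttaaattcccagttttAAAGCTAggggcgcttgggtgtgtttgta
It held 1 run of 44 bases in footprints of both libraries. The longest such run in the 7 windows from wide sites had 20 bases. These windows are examples, and the counts over all sites follow.

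The median width of the wide sites was 720 bases in replicate 1 and 700 bases in replicate 2, and the widest spanned 1560 and 1600 bases. The median of all autosomal peaks was 200 bases in each library. Most wide peaks were not wide in the other animal: the sites were 35.6% of the 887 autosomal peaks of at least 600 bases in replicate 1 and 41.0% of the 719 in replicate 2. Of the 571 wide peaks of replicate 1 that did not qualify, 23 had no peak over them in replicate 2, 276 had 1 narrower peak and 272 had several. Of the 424 of replicate 2, 35 had none in replicate 1, 167 had 1 and 222 had several. A wide interval of one library was thus often listed as several shorter ones in the other.

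In 236 of the 278 loci, each library had a single wide peak, and there the pair shared a median of 620 bases, or 88.2% of the bases that either covered. The left edges differed by a median of 40 bases and the right edges by 40 bases, with widths 60 bases apart. Spearman's rho of the widths of the pair, over loci of the same 2 libraries, was 0.35 and is a description. Just inside the limit, the 20 sites of exactly 600 bases in replicate 1 had a median height of 2.28, and 70.0% were at starts. Just outside it, 21 peaks of 580 bases over a wide peak of replicate 2 had a median height of 1.89, and 71.4% were at starts. In replicate 2 the 32 sites of 600 bases had a median height of 1.80 with 93.8% at starts, and the 26 peaks of 580 bases had 2.27 with 69.2% at starts.

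The deposited lists hold intervals that overlap each other, and most wide sites did so. Of the wide sites, 232 of 316 (73.4%) in replicate 1 and 200 of 295 (67.8%) in replicate 2 overlapped another peak of the same library, against 1.49% and 1.12% of the peaks of 180 to 220 bases. The overlapping peaks had a median width of 360 bases in replicate 1 and 320 in replicate 2 and covered 46.1% and 37.2% of the bases of the wide sites. The wide site was the higher of the overlapping peaks in 196 of 232 cases in replicate 1 and in 185 of 200 in replicate 2. With such sites left out, the 84 and 95 sites with no other peak on them were at starts in 81.0% and 77.9% of cases, with 8.44 and 9.57 footprints per kb. For all wide sites these values were 74.1% and 76.9%, with 8.65 and 9.17 footprints per kb.

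Wide sites lay mostly at gene starts. A site was counted at a start when its midpoint lay within 500 bases of an annotated transcription start, so that width alone did not raise the share. By that rule 74.1% of the 316 sites in replicate 1 and 76.9% of the 295 in replicate 2 were at starts, a mean of 75.5% ± 2.05 (SD, n = 2). Among peaks of 180 to 220 bases the shares were 39.97% and 32.4%, and among all autosomal peaks they were 47.9% and 40.3%. The difference from the peaks of 180 to 220 bases was 39.3 ± 7.44 percentage points (SD, n = 2), above 0 in both libraries. The remainder of the wide sites split into introns, with 13.0% and 11.5%, exons, with 7.59% and 5.42%, and intergenic DNA, with 5.38% and 6.10%. Peaks of 180 to 220 bases were intronic in 26.6% and 31.1% and intergenic in 28.1% and 31.4% of cases.

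This share was not particular to the sites that were wide in both animals. Wide peaks that did not qualify were at starts in 82.5% of cases in replicate 1 and 70.99% in replicate 2, on either side of the values above. By width, the share was lowest for peaks of 140 to under 180 bases, at 19.9% and 17.5%, and was already 74.1% and 62.9% for peaks over 220 and under 400 bases.

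**Figure D1:**
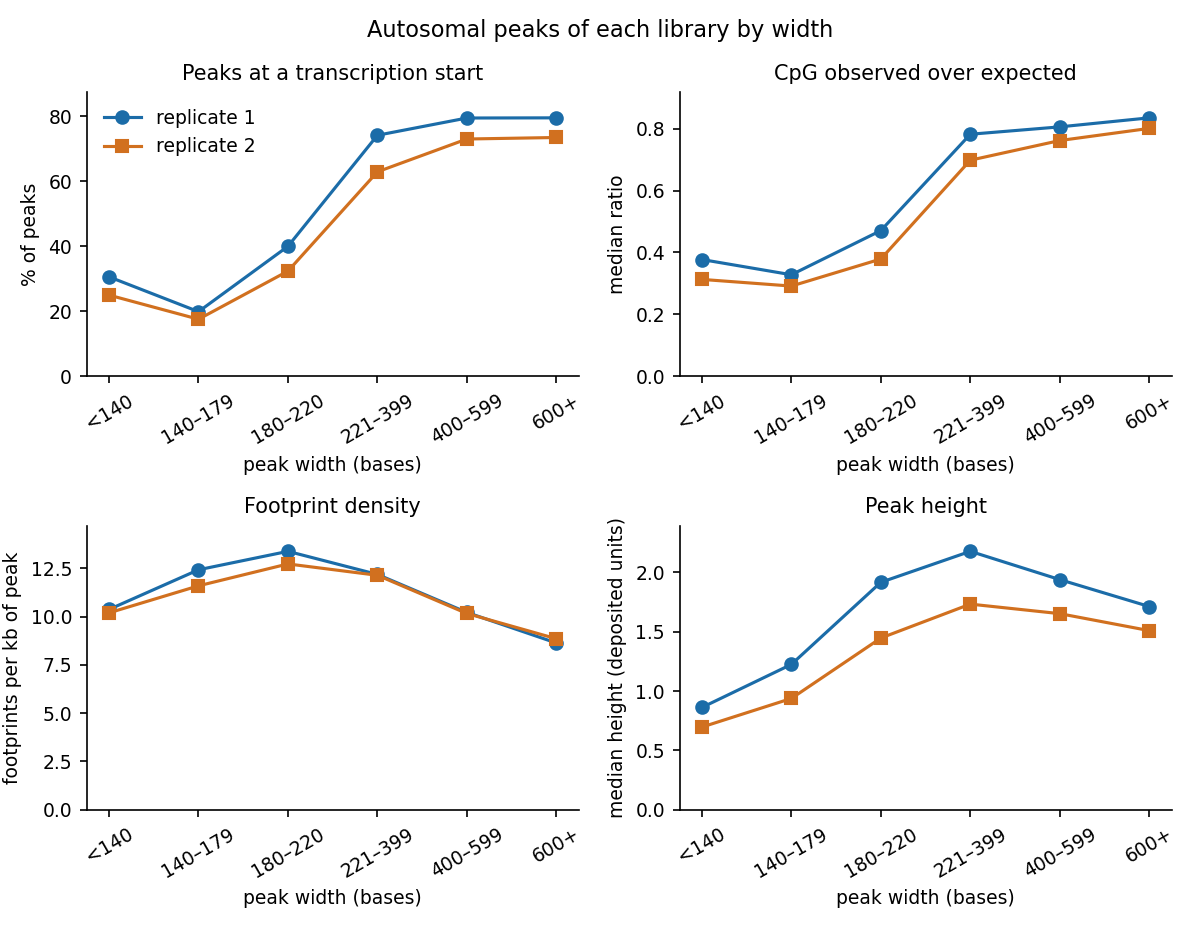
Share of autosomal peaks at a transcription start (%), median CpG observed over expected, footprints per kb of peak and median height (deposited units) against peak width in bases; each point is all peaks of a width class in 1 library, circles for replicate 1 and squares for replicate 2. The start share and the CpG ratio are highest in the classes over 400 bases, while footprints per kb peak at 180 to 220 bases (13.4 and 12.7) and heights between 220 and 400 bases (2.18 and 1.73).

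A wide site held on average 2.08 annotated starts in replicate 1 and 2.02 in replicate 2, against 0.71 and 0.56 in peaks of 180 to 220 bases, a count that grows with width. Per kb, wide sites held fewer starts, 2.73 and 2.66, against 3.57 and 2.79. At starts, the interval reached a median of 344.5 bases upstream and 400 bases downstream of the nearest start in replicate 1, and 332 and 392 bases in replicate 2. The peaks of 180 to 220 bases at starts reached 122 bases upstream and 83 downstream in replicate 1, and 126 and 81.5 bases in replicate 2. The midpoint was downstream of the nearest start in 57.3% and 58.1% of the wide sites at starts, against 31.3% and 29.6% of the peaks of 180 to 220 bases at starts. Both kinds of interval thus mostly spanned a start. No annotated start lay inside 5.98% and 5.73% of these wide sites, against 29.4% and 30.5% of these peaks of 180 to 220 bases. The wide interval was shifted downstream of the start and the peak of 180 to 220 bases upstream. Of the 278 loci, 58 (20.9%) had starts on both strands in or within 500 bases of them, and, placed by the widest peak of each library, 205 were at starts in both libraries, 19 in 1 library and 54 in neither. Counting any wide peak of the locus, 209 were at starts in both libraries, 16 in 1 library and 53 in neither.

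Wide sites were rich in CpG. The median ratio of observed to expected CpG was 0.85 in replicate 1 and 0.84 in replicate 2, against 0.47 and 0.38 in peaks of 180 to 220 bases, a difference of 0.42 ± 0.054 (SD, n = 2). Median GC content was 68.5% and 67.3% in wide sites, against 57.1% and 55.0%. A ratio of at least 0.6 with a GC content of at least 50% was met by 289 sites (91.5%) in replicate 1 and 269 (91.2%) in replicate 2, against 46.2% and 36.5% of all autosomal peaks. The difference was smaller at starts and remained away from them. Among peaks at starts, the ratio was 0.88 and 0.86 in wide sites, against 0.79 and 0.77 in peaks of 180 to 220 bases. Away from starts it was 0.77 and 0.74 in wide sites, against 0.31 and 0.28. Bases marked as repeats averaged 5.81% and 5.99% of wide sites, against 5.92% and 6.57%.

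The wide sites were of middling height. The median was 1.73 in replicate 1 and 1.59 in replicate 2, and the median site stood at percentile 58.3 and 65.7 of all autosomal peaks of its library. Against peaks of 180 to 220 bases, with medians of 1.92 and 1.45, the ratio was 0.902 in replicate 1 and 1.099 in replicate 2, so its direction differed between the libraries (mean 1.00 ± 0.139, SD, n = 2). At starts the direction was shared: wide sites had medians of 1.83 and 1.63, against 2.77 and 2.38 for peaks of 180 to 220 bases. The 95th percentile of height was 4.16 and 4.63 in wide sites, against 4.94 and 4.46 in peaks of 180 to 220 bases, again with the direction differing between the libraries. Across the 278 loci Spearman's rho of the heights of the 2 libraries was 0.908, and that of mean width and mean height was -0.317; these points come from the same libraries and are a description.

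**Figure D2:**
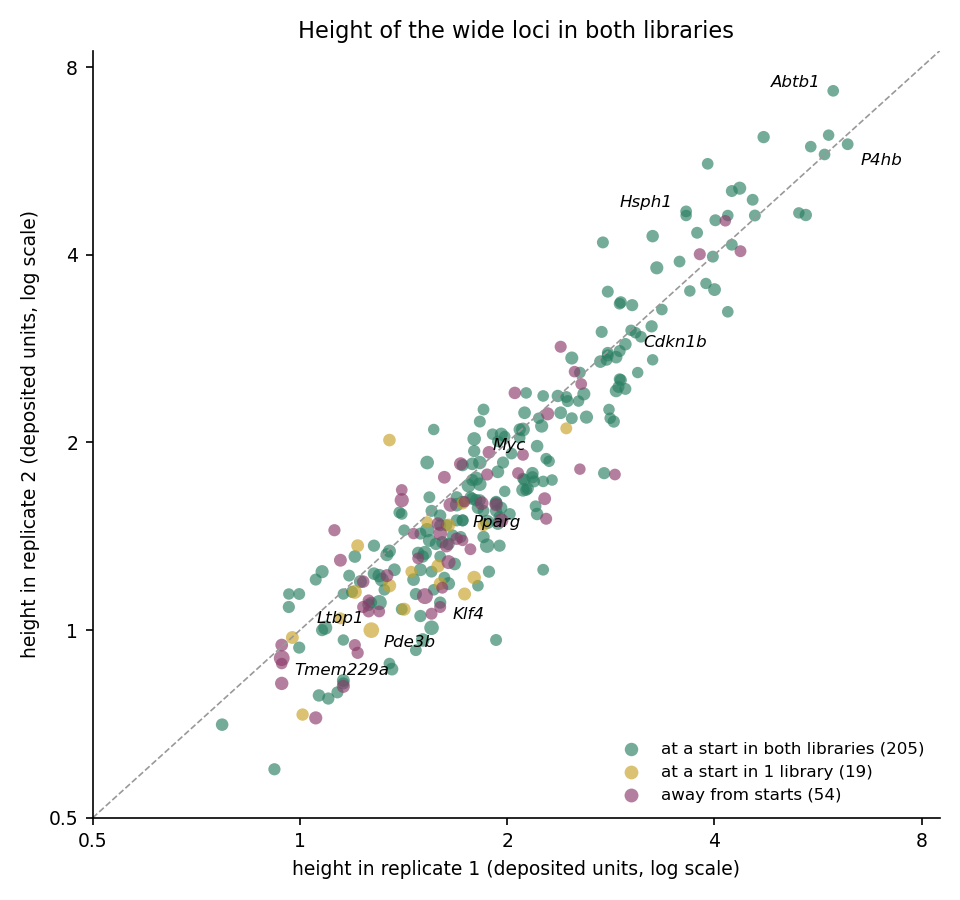
Height of each of the 278 loci in replicate 2 (y axis) against replicate 1 (x axis), in deposited units on log scales, with the area of a point rising with mean width and the dashed line marking equal values. The highest loci, such as Abtb1 (5.95 and 7.33) and P4hb (6.25 and 6.02), are small points, and the widest, such as Tmem229a (0.94 and 0.90) and Pde3b (1.27 and 1.00), are low.

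In what follows, the width of a locus is that of its widest peak, its height that of its highest wide peak, and its footprints are those between the outer edges of its wide peaks. The widest locus was an intron of Cdk6, a kinase that drives entry into S phase, at chr5:3341921-3343520. It was away from starts by its midpoint, although a Cdk6 start at chr5:3343732 lay within 500 bases of its edge. Its wide peak spanned 1320 bases in replicate 1 and 1600 in replicate 2, with heights of 1.52 and 1.13, at percentiles 51.5 and 48.8 of all peaks. A separate wide locus at another Cdk6 start, at chr5:3341101-3341840, had peaks of 738 and 660 bases with heights of 1.05 and 1.21 and no footprint in either library. Tmem229a followed with 1560 and 1300 bases and heights of 0.94 and 0.90. Pde3b, which encodes a phosphodiesterase that breaks down cyclic nucleotides, had 1220 and 1580 bases with heights of 1.27 and 1.00. Ltbp1, whose product holds latent TGF-β in the matrix, had 1290 and 1293 bases, the closest agreement among these, with heights of 1.30 and 1.11. The next of the 12 widest, in order of mean width, were Tnik, a kinase of Wnt signalling, Kctd12, Bach2, a transcriptional repressor, Chst15, a sulfotransferase, the HoxA intergenic site, Rai1, Pard3, a cell polarity scaffold, and Skida1. Skida1 tied at 1070 bases with a locus not among the 12, at the start of the RNA gene Gm27543 in the HoxA cluster (chr6:52248921-52250040). The mean widths of these 8 lay between 1070 and 1170 bases. All 12 stayed at or below a height of 1.96 in replicate 1 and 1.75 in replicate 2, so none of the widest loci was among the highest 12.

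The HoxA site, at chr6:52252381-52254000, differed most in width between the animals among these 12. Its wide peak spanned 619 bases with 3 footprints in replicate 1, and 1580 bases, with 14 footprints at the locus, in replicate 2. It lay 7381 bases from the start of Hoxa11, a patterning gene of the limb, uterus and kidney. Hoxa11 itself had a wide start of 1260 and 720 bases, with heights of 1.53 and 1.86 and 14 and 13 footprints.

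By mean height over the 2 libraries, whose scales may differ, the first wide locus was the start of Abtb1, at chr6:88841881-88842560, with heights of 5.95 and 7.33, percentiles 98.6 and 99.7 of all peaks. Its peak was 680 bases wide in replicate 1 and 600 in replicate 2, with 14 footprints in each. P4hb, the disulfide isomerase that is also a subunit of collagen prolyl 4-hydroxylase, had heights of 6.25 and 6.02 with 9 and 11 footprints, and was the highest wide locus of replicate 1. Ptprs, a receptor tyrosine phosphatase, had 5.86 and 6.22, and Csnk1g2, a casein kinase, had 5.78 and 5.79. Ddx5, an RNA helicase, had 5.52 and 5.96, and Gsk3b, a kinase that restrains Wnt signalling, had 4.72 and 6.18. Ppp2r3d, Tial1, Slc25a42, Gm7461, Rnf44 and Kdm3a completed the highest 12, all with heights between 3.91 and 5.43 in replicate 1 and between 4.63 and 5.60 in replicate 2. Each of these 12 loci was at a start in both libraries. Of all 278 loci, 3 had a copy elsewhere on the assembled chromosomes with at least 95% identity over 200 bases or more. Reads could be placed at either copy of these loci, at Armc10, Ube2q2 and Cdv3, none of them among the loci named here. Copies on other sequences of the assembly were not counted.

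Among the 54 loci whose widest peaks were away from starts in both libraries, 24 were intronic, 16 intergenic and 12 exonic in both, and 2 were placed differently. Of these, 38 had a protein-coding start within 2000 bases, so most flanked a promoter. The Wnt receptor gene Fzd1 had 940 and 1172 bases in its exon with heights of 1.64 and 1.29, and Skida1 had 1020 and 1120 bases in its exon at height percentiles 64.3 and 63.2. Introns of Jade2 (1060 and 960 bases), Rai1 (1100 and 1080), Phf12 (1060 and 1000) and Ppargc1b (940 and 960), a coactivator of mitochondrial biogenesis, had heights between 1.60 and 1.84 in replicate 1 and between 1.37 and 1.60 in replicate 2. The intronic site nearest to Gm12278 differed from these, with 800 and 1078 bases, heights of 0.94 and 0.82, a CpG ratio of 0.22 and the nearest protein-coding start 32625 bases away. A site chosen after its values were seen lay 1413 bases from the start of the AP-1 gene Junb: it had 780 and 640 bases, heights of 3.81 and 4.01, 9 and 8 footprints and a CpG ratio of 0.48.

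Of 20780 autosomal protein-coding genes, 245 (1.18%) had a start in, or within 500 bases of the edge of, a wide site in both libraries. This rule is wider than the midpoint rule used above, by which 213 genes had a wide site at a start in both libraries. A gene counted below as having a wide site near its start met the wider rule, and the counts of the 14 lists were the same under both rules. Of the 11958 with any peak at a start in both libraries, these were 2.05%. In these lists, the counts were small. The immediate early list, of genes induced within minutes of a stimulus, had 2 of 18, Klf4 and Myc. Klf4, a zinc finger factor, had 820 and 680 bases with heights of 1.60 and 1.11, and Myc, a growth regulator, had 1080 and 820 bases with 1.83 and 1.86, although its wide peaks in the 2 libraries shared only 180 bases. The clock list had 1 of 17, the repressor Nfil3, with 1180 and 740 bases and heights of 2.11 and 1.68. The heat shock and stress list had 1 of 16, Hsph1, with 620 and 600 bases and heights of 3.64 and 4.63. The list of growth control and signalling inhibitors had 1 of 23, Cdkn1b, with 620 and 600 bases and 3.03 in each library.

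Like most genes, those that mark the tissue mostly lacked wide sites near their starts. The urothelium list had 1 of 22, Pparg, a nuclear receptor of urothelial differentiation, with 640 and 627 bases and heights of 1.72 and 1.61. The urogenital patterning list had 1 of 27, Hoxa11. Smooth muscle had 0 of 19, although 11 of these had a peak at a start in both libraries, and fibroblast and matrix genes had 0 of 18 with 6 such peaks. The neuron list had 0 of 11 and the hepatocyte list 0 of 12. None of 16 ribosomal and translation genes, 12 housekeeping genes, 18 splicing genes and 9 replication-dependent histone genes had a wide site near a start, and all of these had a start peak in both libraries except 1 housekeeping gene. At the share of 1.18% over all genes, or 2.05% of those with a start peak in both libraries, a list of this size would mostly hold 0 or 1. Only the immediate early list, with 2 of 18, held more. The counts are too small to set a list apart, and none was tested. As a check of the tissue, 11 of 12 urothelium markers and 5 of 9 smooth muscle markers had a start peak in both libraries, with 2 of 5 each for fibroblast, endothelium and myeloid cells and 2 of 3 for glia.

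Families were read from gene symbols after the genes were seen, so their counts support nothing. Histone lysine demethylases and methyltransferases (Kdm, Kmt and Setd symbols) had wide sites near their starts at 6 of 33 genes: Kdm3a, Kdm3b, Kdm7a, Kmt2c, Kmt2e and Setd2. By the midpoint rule 3 of these remained, Kdm3a, Kdm7a and Setd2. Kdm3a was the highest of them, with 4.24 and 5.06, and Kmt2c was 1080 bases wide in replicate 1 and 660 in replicate 2. Cyclin-dependent kinases had 3 of 17 (Cdk6, Cdk12 and Cdk17), Wnt receptors of the Fzd family 2 of 10 (Fzd1 and Fzd3) and Hox genes 1 of 39. By the midpoint rule Cdk12 and Fzd1 dropped out. Zinc finger genes with Zfp symbols had 5 of 385 (1.30%), close to the share of all genes, and 4 by the midpoint rule.

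A wide site held more footprints in all, spread more thinly. In replicate 1 the mean was 6.61 per wide site and in replicate 2 it was 6.97, or 6.79 ± 0.251 over both (SD, n = 2). Wide sites that overlapped another wide site of their library, 66 in replicate 1 and 30 in replicate 2, counted shared footprints and starts more than once. The 2089 and 2055 footprints so counted were 1959 and 1974 distinct ones. Peaks of 180 to 220 bases averaged 2.66 and 2.55. Per kb of peak there were 8.65 and 9.17 in wide sites, against 13.4 and 12.7, a ratio of 0.683 ± 0.052 (SD, n = 2), below 1 in both libraries. The middle of the wide sites was also less dense: their central 200 bases held 9.91 and 10.8 footprints per kb. Footprints of wide sites were shorter, with a mean of 10.5 bases in each library, against 15.3 and 14.97 bases. Those of at least 20 bases made up 6.79% in each library, against 27.5% and 25.98%. In all, footprints covered 9.01% and 9.59% of the bases of wide sites, against 20.5% and 19.1%. Footprints in wide sites also recurred less often: 43.6% and 44.6% overlapped a footprint of the other library, against 67.1% and 59.1% in peaks of 180 to 220 bases. Here 1 shared base counted, a rule that longer or denser footprints meet more easily, and neither length nor density was adjusted for.

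Footprint number moved with height: over the 278 loci Spearman's rho was 0.506 in replicate 1 and 0.532 in replicate 2, as a description. The part of cut depth in the footprint counts was not tested. In the lowest of 4 height classes, wide sites had 3.91 and 5.23 footprints per kb, against 8.68 and 9.83 in peaks of 180 to 220 bases of the same height. Wide sites of height 3 or more, the highest class, had 15.4 and 16.4 per kb, against 18.4 and 18.4. Wide sites were therefore the lower in each of 4 height classes, and the gap was smallest among the highest sites. No footprint was called in 22 sites (6.96%) in replicate 1 and 28 (9.49%) in replicate 2, against 5.56% and 5.03%. There were 12 loci with none in either library, with heights of 0.94 to 1.45 in replicate 1 and 0.73 to 1.24 in replicate 2, those at Cdk6 and near Cdk12 among them. At the other end, 36 loci had 10 or more in both libraries. Gsk3b had 15 and 16, and Csnk1g2 had 18 and 12. The number differed between the libraries by a median of 2 and by at most 13 per locus.

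**Figure D3:**
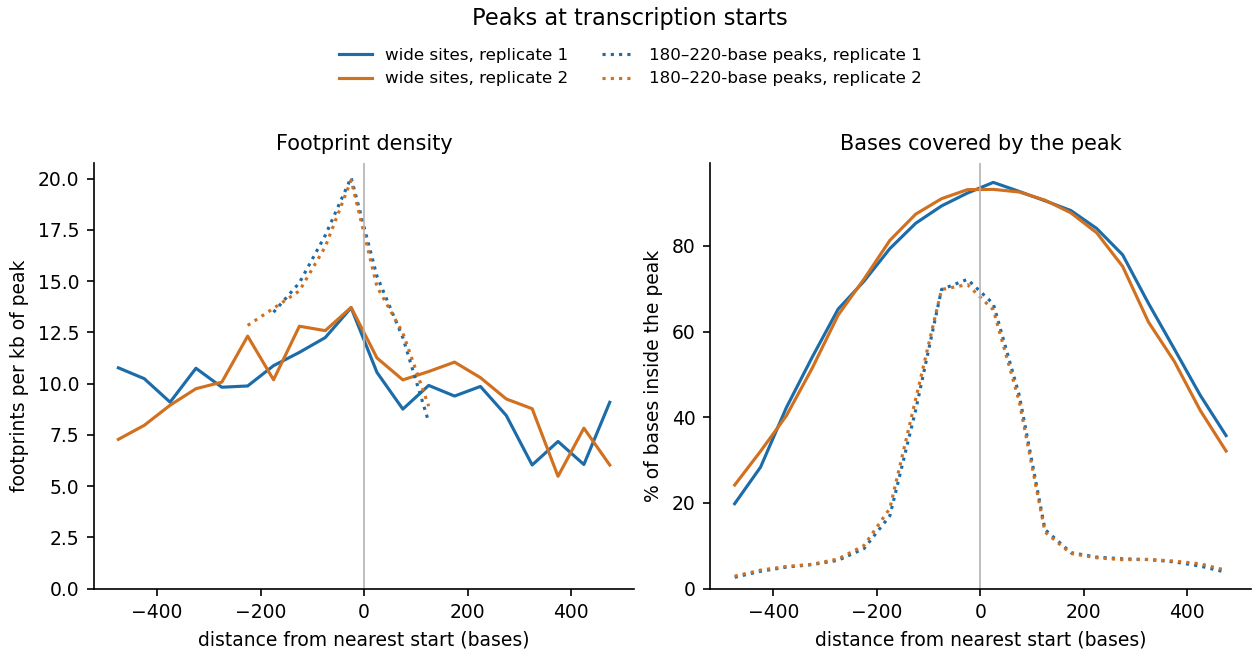
Left, footprints per kb of peak against distance from the nearest start in bases (negative is upstream, bins of 50 bases); right, the percentage of bases in each bin that lie inside the peak. Solid lines are wide sites and dotted lines peaks of 180 to 220 bases, blue for replicate 1 and orange for replicate 2, with density drawn where at least 10% of the bases are covered; both classes are densest just upstream of the start, at 13.7 and 13.7 per kb in wide sites against 20.1 and 19.9.

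At starts, both classes had their densest footprints in the 50 bases just upstream of the start, with 13.7 and 13.7 per kb in wide sites, against 20.1 and 19.9 in peaks of 180 to 220 bases. Further out the profile of wide sites was lower than at the start and more even. Upstream at 200 to 250 bases there were 9.89 and 12.3 per kb, against 13.4 and 12.8 in peaks of 180 to 220 bases. Few peaks of 180 to 220 bases reached so far. At 200 to 250 bases downstream there were 9.87 and 10.3, against 9.87 and 8.90. At 100 to 150 bases downstream wide sites were the denser, with 9.92 and 10.6 against 8.13 and 8.90. Beyond 300 bases downstream, values between 5.48 and 9.09 per kb were found, against 7.68 to 9.82. The lower density of wide sites thus did not hold at every distance from the start.

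Neighbouring footprints were a median of 57 bases apart in wide sites of replicate 1 and 58 in replicate 2, against 45.5 and 45 bases. A peak of 200 bases cannot hold long distances, and in the central 200 bases of the wide sites the median was 47 bases in each library. The quartiles in wide sites were 31 and 94 bases in replicate 1, and 29 and 87 in replicate 2. Distances of 100 bases or more made up 23.0% and 20.1% of the pairs, against 0.84% and 1.14%. In both classes the pairs dropped off at 80 bases: 15.7% and 18.7% of the pairs in wide sites were 60 to 79 bases apart and 8.30% and 8.78% were 80 to 99 apart. The longest distance between neighbours in a wide site was 701 bases in replicate 1 and 592 in replicate 2.

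**Figure D4:**
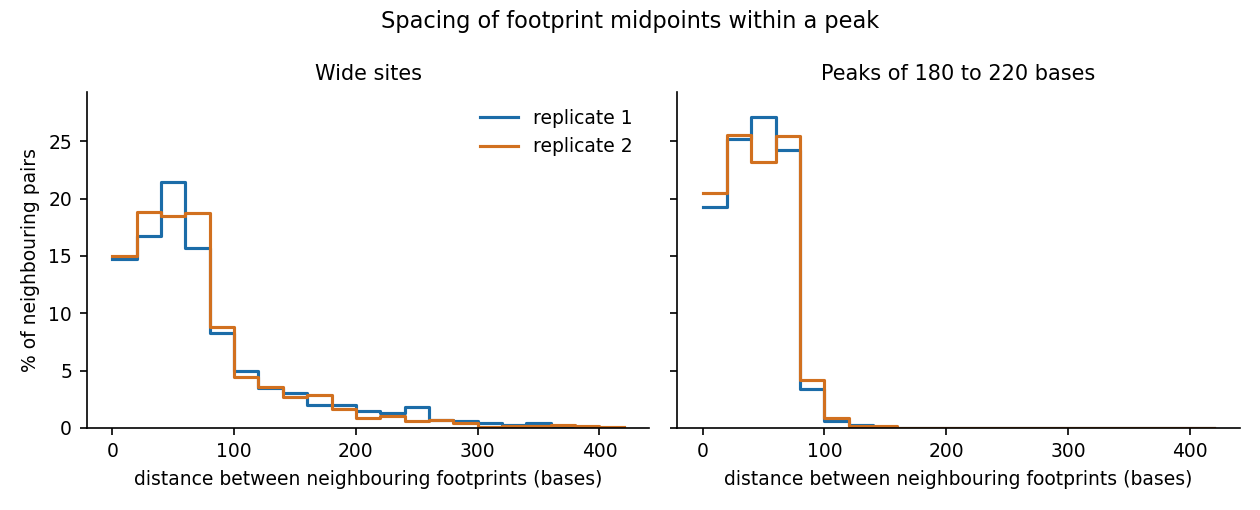
Distance between midpoints of neighbouring footprints of the same peak (bases, bins of 20) as a percentage of all neighbouring pairs, for wide sites (left) and peaks of 180 to 220 bases (right), with replicate 1 in blue and replicate 2 in orange. Both fall at 80 bases, and wide sites keep a tail beyond 100 bases (23.0% and 20.1% of pairs).

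The deposited false discovery rates were low over nearly all bases of this peak list and so set the wide sites little apart. Bases with a rate of 0.001 or less made up 99.9% of wide sites in each library (99.9 ± 0.055, SD, n = 2), against 98.99% and 98.93% of peaks of 180 to 220 bases and 98.4% and 98.2% of all autosomal peaks. The stretch at that rate around the midpoint had a median length of 1271 and 1240 bases in wide sites. In peaks of 180 to 220 bases it was 267 and 270 bases, so in both classes it ran beyond the peak.

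Consensus words were searched on both strands in the central 200 bases of each site, so that the number of bases searched was the same. That is about the whole of a peak of 180 to 220 bases but only part of a wide site, whose other bases were not searched. A match shows only that the letters are there. Median GC content was higher in wide sites, also at starts, with 69.8% and 68.4% against 64.5% and 63.5%. The shares of sites with a word were not adjusted for base composition. Wide sites held GGGCGG, the word of Sp and Klf factors, in 53.2% and 53.6% of cases, against 31.8% and 25.4% of peaks of 180 to 220 bases and 35.8% and 30.1% of all autosomal peaks. At starts the classes did not differ in one direction: 56.0% and 56.4% in wide sites, against 57.4% and 53.8%. The other words of promoters were less common in wide sites at starts than in peaks of 180 to 220 bases at starts. CCAAT, bound by NF-Y, was in 15.4% and 15.4%, against 26.4% and 27.2%, and CCGGAAG, bound by ETS factors, was in 6.41% and 7.93%, against 14.7% and 13.8%. The NRF1 word was in 2.99% and 3.08%, against 8.597% and 8.14%, and TGACGTCA, the cyclic AMP response element, was in 0 sites of either library, against 4.11% and 4.18%.

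Words of distal elements were rare in wide sites. The CTCF word was in 1 site (0.316%) in replicate 1 and 3 (1.02%) in replicate 2, against 14.97% and 14.8% of peaks of 180 to 220 bases and 9.25% and 8.76% of all autosomal peaks. TGANTCA, bound by AP-1, was in 3 (0.949%) and 2 (0.678%), against 7.40% and 10.5%. At starts alone these were 0.427% and 0.881% for CTCF, against 5.53% and 5.50%, and 0.427% and 0.441% for AP-1, against 3.21% and 3.90%. TATAAA was in 1.27% and 1.36% of wide sites, against 3.24% and 4.27%. The E-box CACGTG was in 4.11% and 3.73% of wide sites, against 6.01% and 5.21%. For the YY1 word AANATGGC the direction differed between the libraries, with 7.28% and 4.41% of wide sites, against 5.05% and 4.69%. GGAATG, bound by TEAD factors, was in 4.43% and 7.12%, against 9.75% and 10.1%, and at starts in 5.56% and 7.93%, against 7.63% and 7.15%. The CArG word of serum response factor was in 3 wide sites of each library, 0.949% and 1.02%, against 0.727% and 0.825%.

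**Figure D5:**
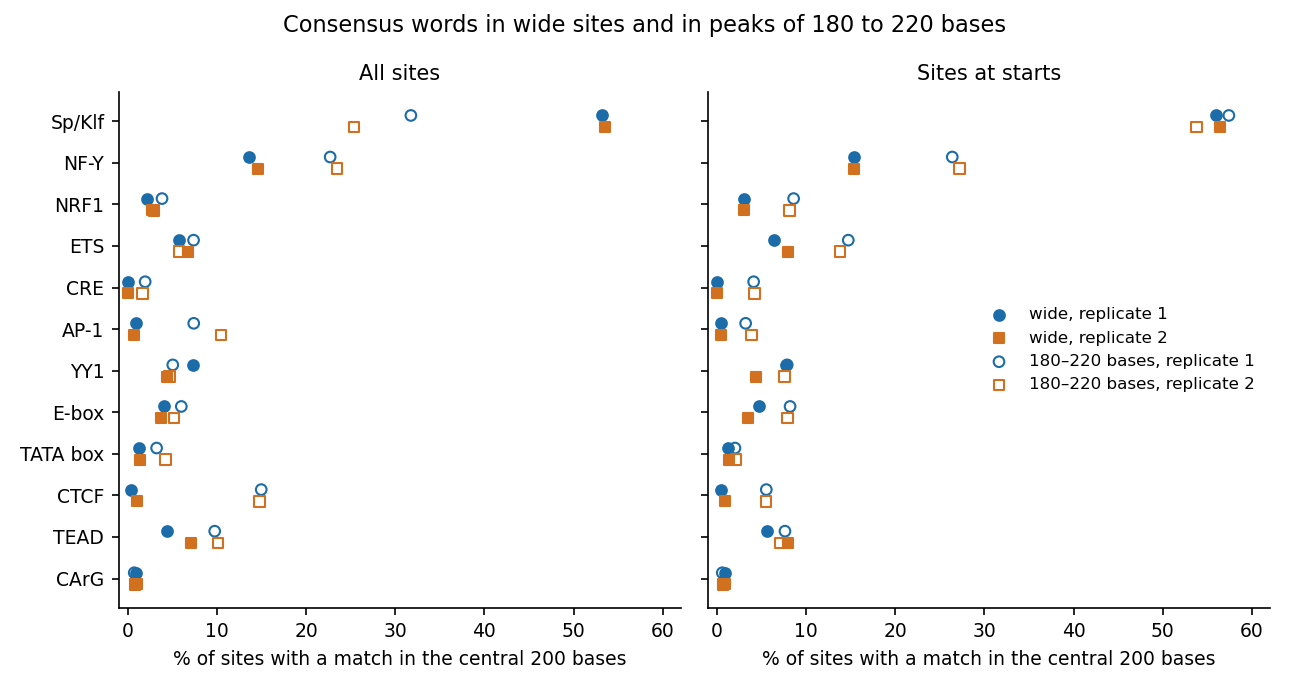
Percentage of sites with a match to each of 12 consensus words in their central 200 bases, for all sites (left) and sites at starts (right); filled marks are wide sites and open marks peaks of 180 to 220 bases, circles for replicate 1 and squares for replicate 2. At starts the Sp/Klf word is about as common in both classes (56.0% and 56.4%, against 57.4% and 53.8%), and the NF-Y, NRF1, ETS, CRE and CTCF words are less common in wide sites.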

How the data were processed

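DNase-seq of mouse urinary bladder, 1 group of 2 libraries, was analysed from the deposited lists of each library on mm10, made per library and not pooled per the labels' protocols; which aligner and callers were used is not given in the sources used here, nor is depth. The authors deposited a signal height for each peak, whose scale is not stated; within a library 100% of heights were whole multiples of one step, 0.0113 in replicate 1 and 0.00893 in replicate 2, to a tolerance of 0.05. The authors deposited footprints with a constant value of 0.01, a p-value or false discovery rate that the labels do not tell apart, and FDR values up to 0.05 for stretches of cutting. The lists are on mm10, a C57BL/6J sequence, and how reads of the CAST/EiJ genome were placed is not given. Placing them on that sequence can lower heights where the genomes differ.

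Peak width is end minus start in the shorter of each library's 2 peak lists, and 1 shared base counted as overlap. A footprint was counted by its midpoint. Starts came from GENCODE vM21 (125891 autosomal transcript starts), sequence from RefSeq GRCm38.p6. CpG-rich means an observed over expected ratio of at least 0.6 with GC of at least 50%. No p-value was computed: sites of a library are not replicates, and the SD of 2 animals measures only their spread. Scripts were tested on simulated peaks. Named loci are the 12 widest, the 12 highest and the 10 widest away from starts, with each list gene that has a start in or within 500 bases of a wide site in both libraries. The members, lists and limits were chosen with earlier results of these data known. Sites were searched for near-identical copies elsewhere on the assembled chromosomes (blastn 2.17.0). Other tools were Python 3.11.15, numpy 2.4.6, pandas 2.3.3, pysam 0.24.0 and samtools 1.23.1.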

Additional observations from a re-analysis of the deposited data

Results flagged for a closer look

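The sex chromosomes lie outside the autosomal sites described above and hold wide peaks of the same kind: 19 peaks of at least 600 bases in replicate 1 and 17 in replicate 2, of which 5 in replicate 1 and 6 in replicate 2 overlapped one of the other library. They were drawn to notice as signal outside the main measurement and were not analysed further.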

How the results depend on the processing

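Of 91 alternative values of 9 results, 42 moved by less than the spread between the libraries, or for the count of loci by under 1.5 times. The height ratio has no settled direction: it was 1.00 with the libraries on either side of 1, and it was above 1 in both libraries in 1 alternative and below 1 in both in 3. The start share of wide sites stayed above that of peaks of 180 to 220 bases in 13 of 13 alternatives, the ratio of footprints per kb stayed below 1 in 12 of 12 and the CpG difference stayed above 0 in 11 of 11. From the longer peak list there were 475 loci, 69.1% of sites at starts, a height ratio of 1.23, 5.73 footprints per site, a spacing of 59.5 bases, a CpG difference of 0.472 and 86.5% of bases at an FDR of 0.001 or less. A limit of 500 bases gave 695 loci, 6.19 footprints, a spacing of 55.5 bases and 99.84% of bases. A limit of 800 bases gave 47 loci, 68.0% at starts, a difference of 31.9 points, 7.63 footprints, a ratio per kb of 0.599, a spacing of 59 bases and 99.97% of bases. The higher 50% of peaks gave 81.2% at starts, 7.72 footprints, a spacing of 56 bases and a CpG difference of 0.344. By overlap with 500 bases either side of a start, 86.6% were at starts, 48.9 points above the narrow peaks, those of 180 to 220 bases. With the midpoint within 250 bases these were 61.3% and 30.2 points, and within 1000 bases the share was 88.7%. Protein-coding starts alone gave 67.6%. Narrow peaks shared between libraries gave a height ratio of 0.804 and a ratio per kb of 0.623, and narrow peaks above the lowest 25% of wide heights gave a ratio per kb of 0.598 and a CpG difference of 0.330. In the central 200 bases the ratio per kb was 0.795 and the spacing 47 bases. Starts alone in both classes gave a CpG difference of 0.0840. Wide sites with no other peak of the same library on their bases, an alternative chosen after seeing the data, made 132 loci with 79.4% at starts, 6.05 footprints, a spacing of 56.5 bases and 99.84% of bases. Without one library or the other, the wide peaks of the remaining library alone made 694 to 828 loci, with 73.4% to 79.5% at starts, 6.33 to 6.44 footprints, a CpG difference of 0.364 to 0.422 and 99.77% to 99.83% of bases. The cause of these shifts was not tested. No paired analysis was possible because there is 1 group and no test between groups. Depth is unknown, so no interval or detection limit was set on a site without a footprint.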
